A study of Mus musculus with 23 samples.

Results

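Dense clusters of NR5A2-bound regions are stretches of the mouse genome where several binding regions of the nuclear receptor NR5A2 lie close together. A region was taken as a member when the midpoints of at least 2 other listed regions lay within 15 kb of its own midpoint, whatever its class. Sex chromosomes were left out, and so were regions with a mean above 20 RPKM (the deposited accessibility unit, scaled for sequencing depth) over the 4 ATAC-seq columns. The rule gave 3111 members among 16362 autosomal regions (19.0%) and 16958 listed regions in all. Of the dense regions, 13 were left out for their height, 10 of them at Sfi1. Just inside the limit were regions at Clec11a and Tomm40, with means of 19.7 and 19.8 RPKM, and just outside it were regions near AA467197 (20.2 RPKM), Sp1 (21.4 RPKM) and Pa2g4 (22.6 RPKM). No accessibility change was used in choosing the members.

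Open chromatin of whole 8-cell mouse embryos was mapped with ATAC-seq, which uses a transposase to cut and tag accessible DNA. In the maternal-zygotic (mz) series, 8 embryos labelled mz_NrHet and 13 labelled mz_NrKO were each made into a library and collected on 1 date, and the controls were heterozygotes, not wild type. Embryos of the inducible series, labelled iNrKO, were taken as early 2-cell embryos (30 h from hCG injection) and spent 45 h in culture, to the 8-cell stage. A pool labelled i_NrKO received 750 nM 4-hydroxytamoxifen for the first 24 h, and a pool labelled i_Nrpp was untreated, so agent and deletion cannot be told apart. The strain, the driver of the inducible deletion, the deleted exons and the embryos per pool are not given in the sources used here, and no value used here checks the genotypes or the cell type. The deposited table holds 1 merged value per group, so no spread between embryos could be computed. Every test below compares the reads of merged libraries, not the conditions, and every interval covers counting error only.

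NR5A2, an orphan nuclear receptor, binds DNA mostly as a monomer at an AAGGNCA core that is often preceded by TC. Groups of neighbouring binding sites are a common form of regulatory DNA, since a gene can be served by several enhancers and by its promoter, and nearby sites can open separately or together. In the early mouse embryo NR5A2 is known as an activator of genes such as Pou5f1 and works beside other nuclear receptors and pluripotency factors.

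The letters bound in the clusters are shown for 7 members that overlap the promoter of a protein-coding gene and whose summit the authors had recentred onto a motif 1 base away. They are shown because they put the NR5A2 core at the authors' summit. Each sequence is the stretch upstream of the start site in RefSeq's promoter table (GRCm38.p6, the assembly of mm10), printed 5′ to 3′ on the gene's strand. Capitals mark AAGGNCA or its reverse complement TGNCCTT.
Dcaf11, chr14:55559868-55559974, + strand: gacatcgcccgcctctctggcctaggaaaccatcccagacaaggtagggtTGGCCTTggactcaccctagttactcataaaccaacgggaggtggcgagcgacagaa
Grwd1, chr7:45830940-45831039, - strand: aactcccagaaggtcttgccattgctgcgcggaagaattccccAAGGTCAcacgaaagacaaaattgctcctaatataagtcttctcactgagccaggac
Khdc3, chr9:73102148-73102246, + strand: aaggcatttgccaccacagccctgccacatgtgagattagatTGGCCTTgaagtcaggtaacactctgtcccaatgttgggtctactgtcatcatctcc
Psap, chr10:60277429-60277535, + strand: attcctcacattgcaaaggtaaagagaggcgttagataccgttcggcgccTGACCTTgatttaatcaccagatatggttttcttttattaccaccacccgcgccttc
Psmc3ip, chr11:101095615-101095685, - strand: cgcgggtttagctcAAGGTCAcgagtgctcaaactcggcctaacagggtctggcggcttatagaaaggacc
Rrn3, chr16:13780549-13780655, + strand: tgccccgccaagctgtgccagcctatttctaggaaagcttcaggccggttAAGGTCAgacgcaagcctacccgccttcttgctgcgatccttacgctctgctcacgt
Sgk1, chr10:21985952-21986058, + strand: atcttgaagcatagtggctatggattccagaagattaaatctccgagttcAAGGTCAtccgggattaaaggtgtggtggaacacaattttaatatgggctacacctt

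Of the 109 members and other listed regions whose recentred summit lay inside a promoter window (250 bases before to 50 after a start site), 65 (59.6%) had AAGGNCA on either strand within 8 bases of the summit. AAGGNCA was in 30 of 108 promoters under a member (27.8%), in 31.9% of 454 promoters under other listed regions, and in 20.3% of all 31365 autosomal promoters. The longer TCAAGGNCA, which contains AAGGNCA, was in 8 of the 108 (7.41%), in 8.37% under other listed regions, and in 1.61% of all. Both shares under members, from 30 and 8 promoters, were nearer those under other listed regions than those of all promoters. These contrasts were not tested.

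These 7 promoters differed in accessibility. At Khdc3, which encodes a protein of the subcortical maternal complex, the member had 16.4 RPKM in mz heterozygotes, 4.66 in mz knockouts, 5.88 without tamoxifen and 2.72 with it. The mz value was called lower (adjusted p = 0.0196, exact binomial test with Benjamini-Hochberg adjustment over all 16958 regions), and the inducible one was not (adjusted p = 0.108). With columns scaled to a median log2 ratio of 0 over all regions, here the median scaling, the mz call ended (adjusted p = 0.152, exact binomial test). At Psap, which encodes a precursor of lysosomal activators, the values were 18.8, 9.33, 5.55 and 3.74 RPKM in the same order, with neither comparison called. At Rrn3, an initiation factor of RNA polymerase I, they were 12.3, 9.68, 3.43 and 5.10 RPKM. At Psmc3ip, a meiotic recombination factor, they were 4.70, 5.74, 5.06 and 4.08 RPKM. Of the 7, Khdc3 alone held a call, which the median scaling ended. With few reads, the missing calls do not show that the other promoters were unchanged.

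Members formed 1072 dense loci, here chains of 3 or more listed regions with at least 1 member and with neighbouring midpoints no more than 15 kb apart. These loci held 4036 regions, of which 925 were flanking regions with too few neighbours to be members. Most were small, with 641 loci of 3 listed regions and 216 of 4, while 16 held 8 or more and 2 held 11. They spanned 1048 to 76065 bp, with a median of 18077 bp, and 782 (72.9%) overlapped a protein-coding gene. Neighbouring members were a median of 5539 bp apart, and 206 of 2039 gaps were under 1 kb. Members made up 26.3% of the autosomal regions on chromosome 11 (377 members), the highest share of any autosome, and 11.1% on chromosome 18 (50 members), the lowest.

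Reads were few at single members. The median member held 5 reads in the mz heterozygous column, 5 in the mz knockout column, 16 in the untreated column and 10 in the treated column. No read was recorded at 235 members (7.55%) in mz heterozygotes, 145 (4.66%) in mz knockouts, 5 untreated and 24 treated, where 3 reads, the limit a count of 0 allows, equal 1.76, 1.08, 0.490 and 0.510 RPKM. Summed over a dense locus, the median reads were 21, 23, 62 and 42 in the same order.

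Clustered regions were bound more strongly than the 13230 other autosomal regions, with a median of 4.95 against 3.98 RPKM in the deposited CUT&RUN signal of an earlier study. A mean of 4.10 RPKM was seen at members in mz heterozygotes, against 3.26 elsewhere, and 3.03 against 2.66 RPKM in the untreated pool. A similar share was of the authors' accessible class, 1461 members (47.0%) against 48.8%. Both classes occurred together in 870 dense loci, while 79 held accessible regions alone and 123 held none. Members overlapped a protein-coding gene in 47.7% of cases against 53.0%, and lay within 1 kb of a start site in 4.63% (144 members) against 3.89%. The authors had moved the summit onto a motif at 92.3% of members and 88.7% of the others. None of these contrasts was tested.

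Accessibility over the clusters was lower in the mz knockout column and in the treated column than in their controls. The summed RPKM of the 3111 members in mz knockouts was 0.663 of that in heterozygotes (95% exact interval 0.651 to 0.675), and in the treated pool it was 0.714 of that in the untreated pool (0.705 to 0.723). Over the other autosomal regions, flanking regions of dense loci included, the ratios were 0.668 (0.662 to 0.675) and 0.690 (0.686 to 0.695). Members thus kept a slightly higher share than other regions in the inducible series, with counting intervals that did not overlap, and a like share in the mz series. These intervals leave out the spread between parts of the genome. The inducible ratio of members ran from 0.642 on chromosome 11 to 0.819 on chromosome 16. Over all listed regions the ratios were 0.668 and 0.694. The part of whole-column differences between libraries in these lower values was not tested. Fewer cells with an open region and less opening per cell cannot be told apart in whole embryos.

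Among accessible members the ratio was 0.637 (0.624 to 0.651) for the mz embryos and 0.717 (0.706 to 0.729) for the inducible ones, against 0.650 and 0.687 at accessible regions outside clusters. Members not called accessible by the authors had ratios of 0.738 and 0.707, close to the 0.736 and 0.700 of other regions of that class. The authors' combined classes of change put 41.4% of members in Down, 44.3% in Unchanged and 14.3% in Up, against 41.1%, 41.2% and 17.7% of the other regions.

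At accessible regions the ratio in the inducible series was higher where there were more neighbours. For accessible regions with 0, 1, 2, 3, 4 and 5 to 6 other regions within 15 kb it was 0.680, 0.697, 0.710, 0.720, 0.766 and 0.749. The last bin holds 24 regions and its interval ran from 0.667 to 0.841. Regions not called accessible showed no such order, with 0.699, 0.701, 0.713, 0.692, 0.726 and 0.631. In the mz series the same bins gave 0.649, 0.651, 0.641, 0.621, 0.639 and 0.671 at accessible regions, without that order either. Accessible regions with more neighbours also had more signal, from 4.96 RPKM in heterozygotes with 0 neighbours to 7.69 RPKM with 4. The part of signal strength in the inducible order was not tested beyond the split that follows.

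**Figure D1:**
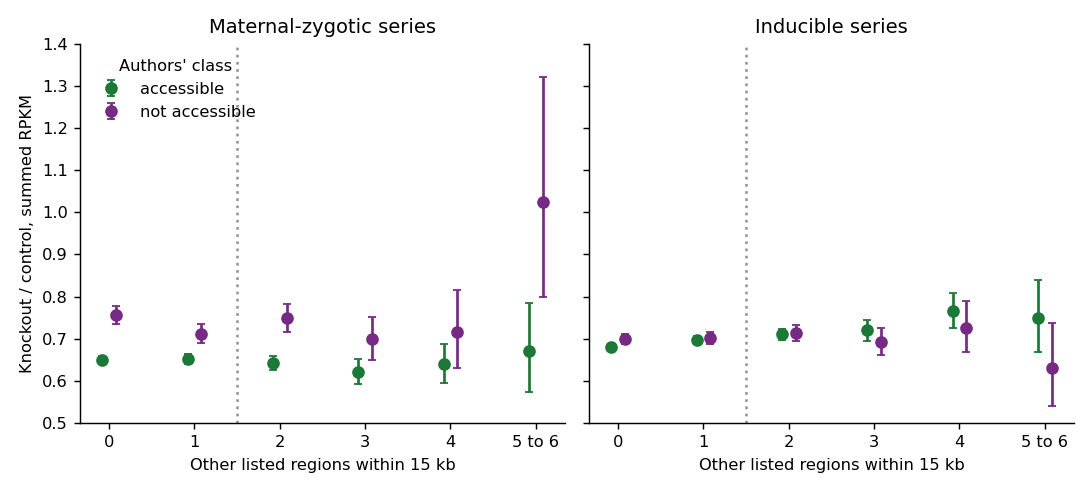
Ratio of summed RPKM, knockout or treated over control (y axis), by the number of other listed regions within 15 kb (x axis), for accessible and not accessible autosomal regions in the 2 series. Points are ratios, bars are 95% exact intervals for counting error, and the dotted line separates members (2 or more) from other regions; accessible regions rise from 0.680 to 0.766 between 0 and 4 neighbours in the inducible series.

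When accessible regions were split into 5 strata of the signal in the other series' control, members had the higher inducible ratio in strata 1 to 4 and the lower in stratum 5. In stratum 4 the ratio was 0.730 (0.706 to 0.754) for 332 members and 0.667 (0.656 to 0.679) for 1246 other regions, at mean control signals of 4.32 and 4.24 RPKM. In stratum 5 it was 0.739 (0.721 to 0.758) and 0.750 (0.739 to 0.761). In the mz series the members' ratio was below that of the others in every stratum, from 0.603 against 0.642 in stratum 3 to 0.630 against 0.632 in stratum 4. The intervals of members and others overlapped in all 5 mz strata and in every inducible stratum except stratum 4. In the mz series members had the higher mean control signal in every stratum, with 5.41 against 4.45 RPKM in stratum 3. The sign of the contrast differed between the series in strata 1 to 4, with intervals apart only in inducible stratum 4. That difference was not tested.

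Ratios differed more by position than by density. Accessible members within 1 kb of a start site (102 regions) had ratios of 0.791 (0.743 to 0.842) for the mz embryos and 0.866 (0.823 to 0.911) for the inducible ones. Accessible members inside genes but away from starts had 0.633 and 0.697, and those outside genes 0.608 and 0.708. Outside clusters the corresponding values near starts were 0.787 and 0.863, so the pattern was not limited to members. Members whose summit was not moved onto a motif had ratios of 0.723 and 0.789, against 0.654 and 0.705 where it was moved.

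Ratios were set beside binding strength. At accessible members the intervals of the weakest and strongest groups overlapped in both series, while at members not called accessible they did not overlap. With all listed regions split into 5 equal groups of CUT&RUN signal, accessible members in the weakest group (95 regions) had an mz ratio of 0.677 (0.617 to 0.744), and those in the strongest group (547 regions) had 0.609 (0.589 to 0.630). The inducible ratios of these groups were 0.714 (0.667 to 0.763) and 0.693 (0.677 to 0.711). In members not called accessible the step was larger, from 0.944 (0.845 to 1.05) to 0.682 (0.635 to 0.733) for mz embryos and from 0.839 (0.787 to 0.894) to 0.650 (0.621 to 0.680) after tamoxifen. Accessible members of the next weakest group (169 regions) had 0.724 (0.676 to 0.777) for mz embryos and 0.759 (0.722 to 0.798) after tamoxifen. Neither interval overlapped that of the strongest accessible group. Accessible regions outside clusters had mz ratios of 0.703 (0.678 to 0.729) and 0.624 (0.612 to 0.637) in the weakest and strongest groups. Their inducible ratios were 0.758 (0.739 to 0.778) and 0.659 (0.650 to 0.668), and neither pair of intervals overlapped. Between chromosomes the mz ratio of members ran from 0.542 on chromosome 14 to 0.798 on chromosome 18, and the inducible ratio from 0.642 on chromosome 11 to 0.819 on chromosome 16.

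The strongest region of a locus did not stand apart from its neighbours in one direction. Ranked by the other series' control, the top regions of the 1072 loci had an mz ratio of 0.658 (0.643 to 0.675) and the remaining 2964 regions 0.671 (0.656 to 0.686). The inducible values were 0.733 (0.720 to 0.747) and 0.702 (0.691 to 0.712). Neighbouring members under 1 kb apart (206 pairs) had log2 ratios that correlated with r = 0.353 (mz) and 0.375 (inducible), although such pairs may share reads. At 5 to 15 kb (1126 pairs) r was 0.052 and 0.108. These correlations describe pairs within the same libraries and are weak at low read numbers.

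Single members were called lower about as often as any listed region. In the mz series 58 members (1.86%) were called lower, where the share over all regions was 1.73%, and 1 was called higher, against 0.0236% of all. For the inducible series 178 (5.72%) were lower against 6.37% of all, and 1 was higher against 0.0767% of all. A missing call does not show that a member was unchanged.

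The lower members with the smallest adjusted p in the mz series lay at or near Got1, Dnajc11, Hes1, Gm38664, Hmgxb4, Timd2, Trim39, Lif, Wipf2 and Ccdc71. At Got1, the cytosolic aspartate aminotransferase, the values were 37.6 RPKM in mz heterozygotes and 6.81 in mz knockouts (adjusted p = 9.23e-09, exact binomial test), then 9.47 untreated and 6.47 treated. Near Lif, a cytokine that sustains pluripotent cells in culture, they were 18.2, 3.95, 10.4 and 6.13 RPKM in the same order (mz adjusted p = 0.00195, exact binomial test). At Hmgxb4 they were 14.1, 1.79, 7.67 and 3.06 RPKM, with both comparisons called, the inducible one no longer under the median scaling (adjusted p = 0.239, exact binomial test). The Got1 and Lif members were not called in the inducible series, although both were lower there.

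In the inducible series the smallest adjusted p values were near Pank3, Col8a2, Nme1, Rad51c, Cldn4, Glb1, Pitpnc1, Tpcn2, Pim1 and Cyth2. The member near Pank3, a pantothenate kinase of coenzyme A synthesis, had 9.40, 1.79, 9.96 and 2.04 RPKM over mz heterozygotes, mz knockouts, untreated and treated pools, and was called in both series, the mz call ending under the median scaling (adjusted p = 0.209, exact binomial test). At Rad51c, a homologous recombination gene, the values were 3.52, 2.51, 8.81 and 1.87 RPKM. Near Cldn4, a tight junction claudin, they were 7.64, 5.74, 8.00 and 1.53 RPKM. These 2 were called lower in the inducible series alone, with no test of the difference between series for single regions.

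The 13 members called lower in both series (0.418% of members, where the share over all regions was 0.413%) lay at or near Hes1, Hmgxb4, Wipf2, Mtus1, Nol4l, Tpcn2, Cux1, Slc26a11, Naif1, Pank3, Ugcg, Ifitm10 and Dennd1c. They had 4.70 to 19.4 RPKM in mz heterozygotes, and no read was recorded in mz knockouts at 2 of them, Nol4l (6.46 RPKM in heterozygotes) and Ugcg (4.70). At Ugcg, which encodes the enzyme that makes glucosylceramide, the untreated and treated values were 3.10 and 0.340 RPKM. At Naif1 the values were 7.05, 0.717, 4.73 and 0.510 RPKM over mz heterozygotes, mz knockouts, untreated and treated pools. Under the median scaling 5 of the 13 stayed called in the mz series and 3 in the inducible series, and none in both.

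The 2 members called higher each rose in a single series. One lay 3210 bp from Tmpo, which encodes a nuclear lamina protein, with 1.17 RPKM in mz heterozygotes and 8.61 in mz knockouts (adjusted p = 0.0496, exact binomial test), and 5.22 untreated and 3.06 treated. The other lay 5093 bp from Rps6ka1, a ribosomal S6 kinase, with 0.653 RPKM untreated and 3.23 treated (adjusted p = 0.0295, exact binomial test), and 1.17 and 0.717 in the mz series. Both rest on few control reads, 2 and 4.

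Summing reads over a dense locus gave many more calls. In the mz series 121 dense loci (11.3%) were called lower, against 3.64% of all 11785 loci in the table, single regions and pairs included. After tamoxifen 256 (23.9%) were lower against 11.3% of all. No dense locus was called higher in either (0.017% and 0.136% of all loci). Lower calls in both series were found at 69 dense loci (6.44%), against 1.43% of all loci, and at 4 dense loci under the median scaling. Of the lower loci, 74 (mz) and 114 (inducible) held no region that was called by itself.

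The share of loci called followed their size and their reads. In the mz series it was 2.07% for single regions, 6.19% for pairs, 7.96% for 3 regions, 13.6% for 4 to 5 and 24.8% for 6 to 11, while median control reads rose from 3 through 10, 18 and 24.5 to 43. The inducible shares were 7.97%, 16.6%, 18.7%, 29.4% and 38.6%, with 13, 32, 52, 73 and 117 reads. The summed ratio over loci of 6 to 11 regions was 0.658 in the mz series and 0.722 in the inducible series, and over single regions 0.671 and 0.685. Larger loci were thus called more often at ratios close to those of small ones, and more reads came with each step in size. The part of read number in the rising share was not tested.

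Direction was shared by most loci. The ratio was below 1 in 876 dense loci (81.7%) in the mz series, 959 (89.5%) in the inducible series and 805 in both. The median ratio was 0.661 in the mz series (quartiles 0.494 and 0.890), and 0.717 with quartiles of 0.582 and 0.862 after tamoxifen. All regions were below control in 299 loci of the mz series and 435 of the inducible series. These shares include the lower level of the knockout columns over all listed regions, where the median log2(RPKM + 1) ratio was -0.32 for mz and -0.35 for inducible columns.

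**Figure D2:**
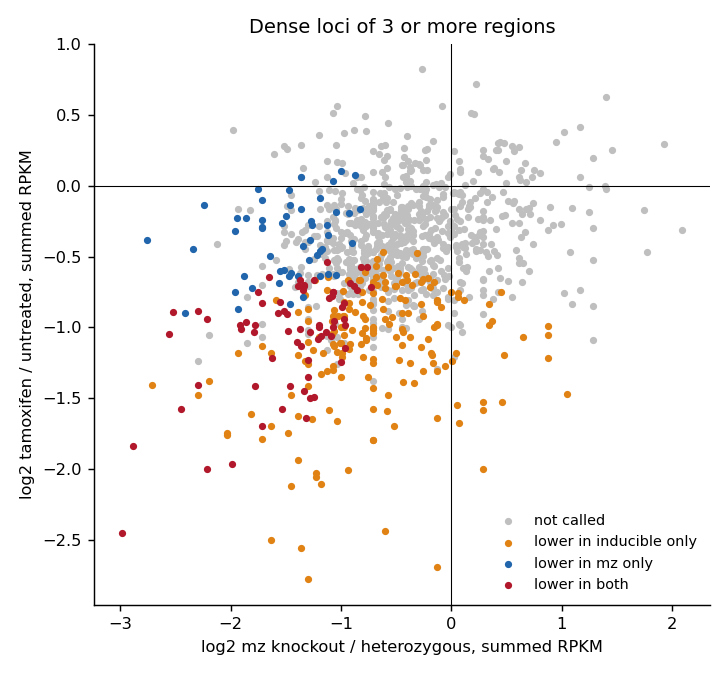
Log2 ratio of summed RPKM in the inducible series (y axis) against the mz series (x axis) for 1071 dense loci with reads in every column; 1 locus without them is not drawn. Colours mark loci called lower in both series (69), in 1 series or in neither, and most points lie below 0 on both axes.

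Among the lower loci of the mz series, the cluster at Wipf2, an actin regulator, lay within 50 kb of Rara, the retinoic acid receptor alpha gene. It spans chr11:98873192-98906843 (mm10) and holds 6 members, 2 of them accessible. Its members had 4.11, 2.35, 1.17, 5.29, 13.5 and 5.29 RPKM in mz heterozygotes, in genome order, and 1.79, 0.359, 0.359, 1.08, 1.79 and 1.08 RPKM in mz knockouts. All 6 were lower in the knockout column, and the summed ratio was 0.204 (0.112 to 0.353, adjusted p = 5.89e-07 over all loci, exact binomial test). The inducible sum was 16.7 RPKM untreated and 9.02 treated (ratio 0.542, adjusted p = 0.00692, exact binomial test).

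Hes1 encodes a transcriptional repressor of the Notch pathway. Its cluster (chr16:30079616-30090815) lies 11.8 kb from the gene and holds 3 members, with 9.40, 19.4 and 0 RPKM in mz heterozygotes and 1.43, 2.51 and 1.08 in mz knockouts. Both members with signal in controls were lower. The summed ratio was 0.174 (0.0889 to 0.321, adjusted p = 5.89e-07, exact binomial test). Without and with tamoxifen the members had 5.88, 7.51 and 2.12 RPKM, and 3.91, 3.40 and 1.02 RPKM (ratio 0.538, adjusted p = 0.00765, exact binomial test).

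Cux1, a homeodomain transcription factor gene, holds a cluster of 3 regions (chr5:136540139-136560926) that was among the 10 smallest adjusted p values in both series. Its regions had 6.46, 7.05 and 3.52 RPKM in mz heterozygotes, 0.717, 0.359 and 1.08 in mz knockouts, 3.59, 4.08 and 1.63 untreated and 0.340, 0.681 and 0.681 treated. Only the middle region is a member. All 3 were lower in both series, with ratios of 0.126 (0.0429 to 0.310) and 0.183 (0.0833 to 0.361).

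The other mz loci with the smallest adjusted p were at or near Dnajc11 (ratio 0.260), Got1 (0.393), Gm38664 (0.297), Rims3 (0.215), Thap4 (0.262), Pank3 (0.319) and Kank4 (0.435). At Kank4 the 6 members had 2.35 to 18.2 RPKM in mz heterozygotes and 1.08 to 8.25 in mz knockouts, with every member lower, and the locus was also called in the inducible series (ratio 0.506). The Got1 call rested on 1 member, since keeping 1 region per kb, which left that member out, gave a ratio of 0.644 that was not called (adjusted p = 0.225, exact binomial test). Rims3 (inducible ratio 0.521) and Pank3 (0.641) were called in both series as well. Under the median scaling the mz calls at Wipf2, Hes1, Rims3 and Pank3 stayed. Their inducible calls ended (adjusted p from 0.213 at Rims3 to 0.458 at Pank3, exact binomial test). Cux1 and Kank4 stayed called in both, Kank4 with an inducible adjusted p of 0.0463 (exact binomial test). With columns scaled to equal sums Cux1 stayed called in both and Kank4 in neither.

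In the inducible series the 10 loci with the smallest adjusted p were at Slc13a2, Slc46a1 and Sarm1 (ratio 0.422), Nol4l (0.366), Top3a (0.176), Pfkfb3 (0.420), Cux1 (0.183), Gid4 and Drg2 (0.25), Rin2 (0.308), Btbd7 (0.245), Slc35f2 (0.354) and Col8a2 (0.288). The first, which spans the folate transporter gene Slc46a1, had 31.8 RPKM untreated and 13.4 treated (adjusted p = 1.9e-07, exact binomial test) and had an mz ratio of 0.501. Top3a encodes a DNA topoisomerase, and its 3 members had 2.29, 5.22 and 3.10 RPKM untreated and 0.340, 0.851 and 0.681 treated. Pfkfb3 encodes a regulator of glycolysis, and its 5 members had 5.06, 3.59, 3.75, 6.69 and 6.04 RPKM untreated and 0.851, 2.72, 3.40, 1.87 and 1.70 treated. The mz ratio of the Pfkfb3 locus was 0.894 and was not called, with 0.540 to 1.50 as its interval.

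Loci with the most regions were not all lower. The 11 regions from Rarg, the retinoic acid receptor gamma gene, through Mfsd5 to Espl1, which encodes separase (chr15:102237959-102301919), summed to 62.9 RPKM in mz heterozygotes and 55.9 in mz knockouts. The untreated and treated pools had 46.7 and 47.0 RPKM. The ratios of 0.890 (0.691 to 1.15) and 1.01 (0.850 to 1.19) were not called in either series, and 10 of the regions are members. At the Wipf2 cluster the mz ratio was 0.204, so clusters near Rara and at Rarg had values far apart, with intervals that do not overlap. That difference was not tested.

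The locus with the other 11 regions covered Triap1, Cox6a1 and Msi1 (chr5:115342168-115414962) and had ratios of 0.756 in the mz series and 0.630 in the inducible series, where it was called lower (adjusted p = 0.0155, exact binomial test). Also called in the inducible series were Wsb1 (9 regions, 0.677), the cluster near Csnk2a1 (9 regions, 0.567) and Mtus1 (8 regions, 0.620). Mtus1, which encodes a microtubule-associated protein, was lower in the mz series too (0.530, adjusted p = 0.0203, exact binomial test). Not called in either series were Taok1 (10 regions, 0.903 and 0.815), Caprin1 (9 regions, 1.01 and 0.963), the Sp1, Amhr2 and Prr13 locus (9 regions, with 0.753 and 1.05 over the 8 at or below 20 RPKM) and the Pramel17 and Pramel18 locus (9 regions, 1.04 and 0.966). Under the median scaling no lower call was left at the Triap1, Wsb1, Csnk2a1 and Mtus1 loci, with adjusted p from 0.216 to 0.694 in the inducible series and 0.369 for Mtus1 in the mz series (exact binomial test).

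The last of these 10 loci covered Nlrp12 and the Mir290 to Mir295 microRNA cluster (chr7:3204067-3261816), whose microRNAs are the main ones of the early mouse embryo and of embryonic stem cells. Mature sequences from RefSeq's microRNA table (GRCm38.p6) are given for 4 of its microRNAs, with the seed, bases 2 to 8, in capitals, because they are products of the locus.
mmu-miR-291a-3p: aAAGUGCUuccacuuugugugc
mmu-miR-291b-3p: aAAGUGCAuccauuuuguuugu
mmu-miR-294-3p: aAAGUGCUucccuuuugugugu
mmu-miR-295-3p: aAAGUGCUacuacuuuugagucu
The seed AAGUGCU is common to 3 of them and AAGUGCA is that of the fourth. The locus held 9 regions, of which 8 are members. In mz heterozygotes the regions had 8.81, 4.70, 8.81, 14.1, 0.587, 2.35, 0, 1.76 and 2.35 RPKM in genome order, and in mz knockouts 3.95, 1.79, 6.46, 10.4, 0.359, 1.43, 0.359, 1.79 and 1.79. The 4 strongest, all in the first part of the locus, had lower values in mz knockouts. Its summed ratio was 0.652 in the mz series (adjusted p = 0.126, exact binomial test) and 0.722 in the inducible series (adjusted p = 0.0464, exact binomial test), where the median scaling ended the call (adjusted p = 0.847, exact binomial test).

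**Figure D3:**
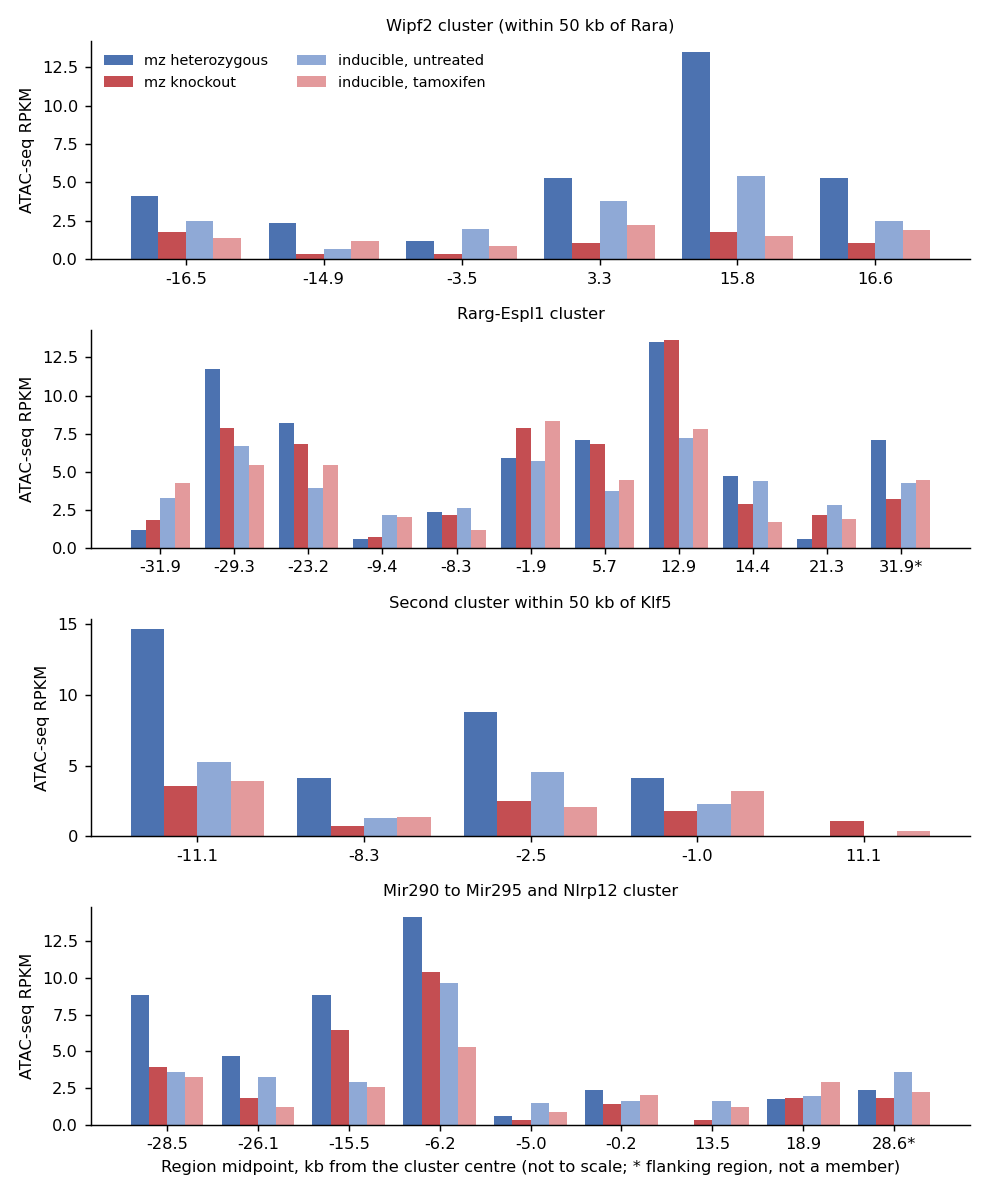
ATAC-seq RPKM (y axis) of every listed region in 4 clusters, ordered by position and labelled with the distance of its midpoint from the cluster's centre in kb (x axis); bars are the 4 merged columns, and an asterisk marks a flanking region. At the Wipf2 cluster all 6 mz knockout bars are below the heterozygous ones, while at the Rarg cluster most pairs of bars are of like height.

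The study's own gene lies near a cluster of 4 accessible members, 12.4 kb from Nr5a2 (chr1:136972880-136985201). They had 20.0, 7.64, 9.40 and 5.87 RPKM in mz heterozygotes and 15.8, 4.30, 8.61 and 6.46 in mz knockouts. Without tamoxifen they had 6.86, 3.10, 6.53 and 3.75 RPKM, and with it 8.34, 2.55, 5.28 and 6.30. The summed ratios of 0.820 (0.599 to 1.13) and 1.11 (0.862 to 1.43) were not called, and the values in each series overlap.

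Of 85 autosomal regions within 50 kb of the 16 genes of the inner cell mass and pluripotency list, 47 (55.3%) were members, near 11 of the genes. Over all autosomal regions 19.0% were members, and near granulosa and cumulus genes 13 of 22 (59.1%). The summed ratio of these members was 0.525 (0.449 to 0.612) for the mz embryos and 0.665 (0.601 to 0.735) for the inducible ones. The median log2(RPKM + 1) ratio was -0.70 and -0.35, against -0.32 and -0.35 over all listed regions. Of the 13 dense loci holding these members, 3 were called lower in the mz series and 4 in the inducible series, where 11.3% and 23.9% of all dense loci were. Near genes of all 8 lists together, 7 mz and 13 inducible calls were made at dense loci. Under the median scaling 2 of the 7 stayed, the second Klf5 cluster and the one near Rara, and 1 of the 13, near Tdgf1. With columns scaled to equal sums the Klf5 and Tdgf1 calls ended too. Apart from the mz call near Rara, every list call given below thus depends on the scaling between columns.

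Klf5 and Klf4 encode zinc finger factors of the pluripotency network. The second Klf5 cluster (chr14:99346942-99369361, 33.5 kb from the gene) had 14.7, 4.11, 8.81, 4.11 and 0 RPKM at its 5 members in mz heterozygotes and 3.59, 0.717, 2.51, 1.79 and 1.08 in mz knockouts. It was called lower (ratio 0.305, 0.185 to 0.493, adjusted p = 0.000127, exact binomial test), while its inducible ratio was 0.814 (0.578 to 1.14) and was not called. The cluster nearest Klf5, of 3 members, had ratios of 0.423 and 0.700, with neither called. The Klf4 cluster was lower in both series, from 13.5 to 3.95 RPKM (ratio 0.292, adjusted p = 0.0241) and from 17.5 to 8.85 RPKM (ratio 0.507, adjusted p = 0.00205, both exact binomial tests). Under the median scaling these Klf4 values had adjusted p of 0.198 and 0.151 (exact binomial test).

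Pou5f1, which encodes OCT4, had a cluster of 5 members with 1.17, 13.5, 1.17, 4.70 and 15.9 RPKM in mz heterozygotes and 2.15, 7.53, 0.359, 3.59 and 10.0 in mz knockouts. The inducible value was called lower (ratio 0.645, adjusted p = 0.0289, exact binomial test) and the mz ratio of 0.650 was not (adjusted p = 0.177, exact binomial test). The 2 ratios are close to each other, and the untreated column holds more reads. The cluster in Slc2a3 that lies within 50 kb of Nanog was called in the mz series (ratio 0.362, adjusted p = 0.0202, exact binomial test) and not in the inducible one (0.561, adjusted p = 0.0555, exact binomial test). Near Fgf4, the growth factor of the inner cell mass, and Tdgf1, a Nodal co-receptor, the values were called lower in the inducible series at ratios of 0.497 and 0.248. The remaining clusters of this list had no call, with mz and inducible ratios of 0.646 and 0.745, and 0.458 and 0.841, at the clusters near Sall4, 0.830 and 0.692 near Dppa4, 0.407 and 0.626 near Tfcp2l1, 0.529 and 0.666 near Prdm14, and 1.05 and 0.807 near Klf17.

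In the oocyte and maternal-effect list, 17 of 43 nearby regions were members, near 6 of 15 genes found on autosomes. Their ratio was 0.496 (0.402 to 0.612) for the mz embryos and 0.856 (0.732 to 1.00) for the inducible ones, with intervals that do not overlap. That difference was not tested, and no dense locus differed between the series after adjustment. Of the 6 dense loci, 2 were called lower in the mz series and 1 in the inducible series, beside 11.3% and 23.9% of all dense loci. The cluster at Gdf3 and near Dppa3, which encodes a maternal protein that guards DNA methylation, had 8.81, 22.9 and 7.64 RPKM in mz heterozygotes and 3.95, 10.0 and 5.74 in mz knockouts (ratio 0.501, adjusted p = 0.0114, exact binomial test). Its inducible ratio was 1.07 (0.810 to 1.42). The Rab27a and Khdc3 cluster, which includes the promoter printed above, had ratios of 0.414 (adjusted p = 0.00263, exact binomial test) and 0.841 (0.606 to 1.16). The cluster by Dppa5a and near Ooep had 0.587, not called, in the mz series and 0.469, called, in the inducible series (adjusted p = 0.00407, exact binomial test). Clusters near Tle6 (0.496 and 0.738), Zp2 (0.611 and 0.800) and Gdf9 (1.36 and 1.24) had no call. The Dppa3, Khdc3 and Ooep calls ended under the median scaling (adjusted p of 0.273, 0.108 and 0.159, exact binomial test).

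Trophectoderm genes had 13 members among 28 nearby regions, near 4 of 14 genes, with ratios of 0.534 (0.366 to 0.777) and 0.531 (0.419 to 0.669). The cluster by Tead4, the Hippo pathway factor that sets up this lineage, had 0.587, 5.29 and 4.11 RPKM in mz heterozygotes and 3.95, 3.95 and 2.15 in mz knockouts, a summed ratio of 1.01. Without tamoxifen it had 2.12, 7.51 and 5.22 RPKM and with it 1.87, 2.89 and 1.53 (ratio 0.424, adjusted p = 0.000439, exact binomial test). The Tead4 call ended under the median scaling (adjusted p = 0.0505, exact binomial test). Of the 5 dense loci of this list, 0 were called lower in the mz series and 2 in the inducible series, Tead4 and a cluster near Hand1 (0.456), where 11.3% and 23.9% of all dense loci were.

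Polarity and Hippo genes had 12 members among 57 nearby regions, with ratios of 0.601 (0.420 to 0.860) and 0.585 (0.457 to 0.746). The cluster near Prkcz, an atypical protein kinase C of the apical domain, was called lower in both series (0.382 and 0.611), with adjusted p of 0.0684 and 0.574 under the median scaling (exact binomial test). Near Yap1, the transcriptional co-activator of the Hippo pathway, the inducible value was called lower (0.537, adjusted p = 0.00729, exact binomial test), with an mz ratio of 0.736. One of the clusters at Tjp1, a tight junction scaffold gene, was also called in the inducible series (0.404) and not in the mz series (0.458), and the other had 0.480 and 0.695 with no call. No call was made at the clusters near Nf2, an upstream Hippo regulator, with 2.44 (0.889 to 8.33) and 0.555, and Cdh1, which encodes E-cadherin, with 1.02 and 0.821. Near primitive endoderm genes there were 5 members among 22 nearby regions, with ratios of 0.930 (0.520 to 1.70) and 0.695 (0.498 to 0.964). Of their clusters, that near Gata6 was called lower in the inducible series (0.592, mz 1.04), and those near Gata4 (mz 0.458, inducible 1.13) and Pdgfra (0.687 and 0.760) were not called. Genes of the 2-cell stage had 0 members among 19 nearby regions.

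Nuclear receptors and their cofactors had 28 members among 90 nearby regions, near 5 of 27 genes found on autosomes, with ratios of 0.733 (0.615 to 0.873) and 0.881 (0.778 to 0.997). Of their 6 dense loci 1 was called lower in the mz series and 2 in the inducible series, beside 11.3% and 23.9% of all dense loci. Near Rara the 4 members within 50 kb had ratios of 0.170 (0.0818 to 0.329) and 0.477 (0.316 to 0.709), and near Rarg the 13 members had 0.928 (0.720 to 1.20) and 0.955 (0.807 to 1.13). Members near Ncor1, a corepressor gene, had 1.22 (0.424 to 3.97) and 0.348 (0.144 to 0.761). Genes listed for granulosa and cumulus cells, which surround the oocyte, had 13 members near Amh, Gja1 and Amhr2. The members' ratios were 0.896 (0.665 to 1.21) and 0.998 (0.819 to 1.22), with no locus called. The gene nearest the Amh cluster is Oaz1, and the Amhr2 cluster also overlaps Sp1 and Prr13.

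**Figure D4:**
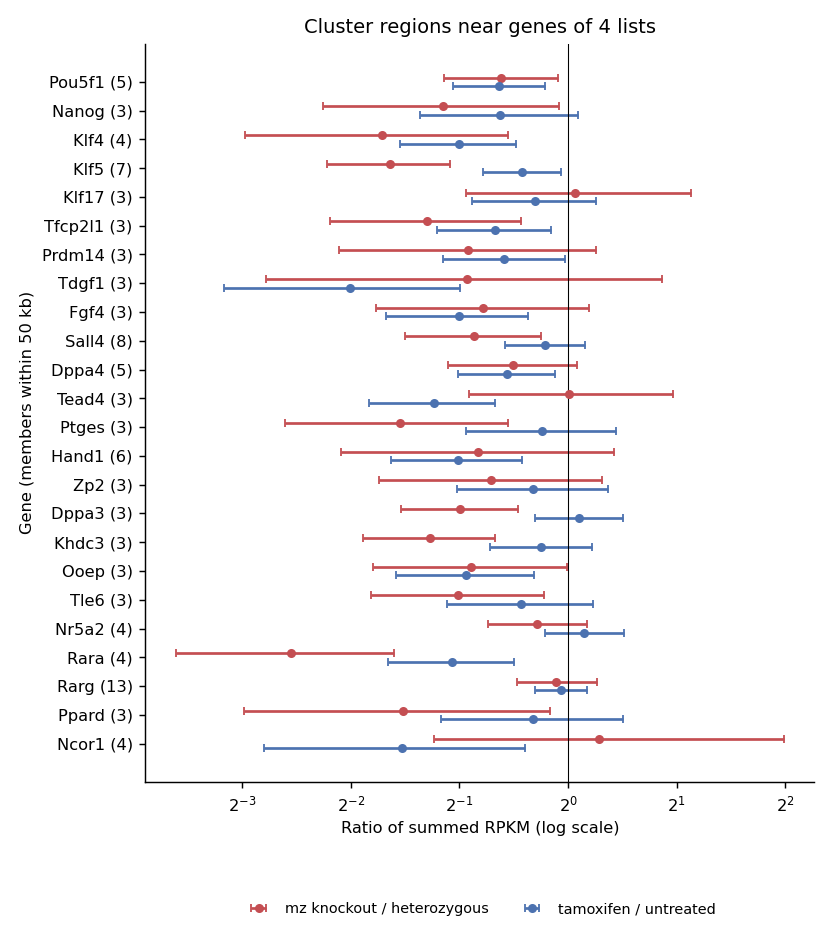
Ratio of summed RPKM of members within 50 kb of a gene (x axis, log scale), for genes of the pluripotency, trophectoderm, oocyte and nuclear receptor lists with at least 3 members (number in brackets, y axis). Points are the mz and inducible ratios and bars 95% exact intervals for counting error; Rara lies at 0.170 and Rarg at 0.928 in the mz series.

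Few loci passed a test of unequal ratios between their regions, which with these read numbers does not show that the regions moved alike. After adjustment, unequal ratios within the locus were found at 1 dense locus in the mz series (0.0313% of 3191 loci tested) and 2 in the inducible series (0.0627% of 3190), by the Fisher-Freeman-Halton exact test. At an unadjusted p under 0.05 there were 130 dense loci (12.1%) and 170 (15.9%), against 7.15% and 10.3% of all loci tested. Median control reads were 10 (mz) and 32 (inducible) at pairs, and 18 and 52 at loci of 3 regions. The part of read number and of the number of regions in these shares was not tested. The mz locus was Slc27a1, a fatty acid transporter gene (adjusted p = 0.0178). Its 3 members had 2.94, 12.3 and 22.9 RPKM in mz heterozygotes and 0, 17.6 and 7.17 in mz knockouts, so the middle one was higher and the last lower, which alone was called (adjusted p = 0.00589, exact binomial test, and 0.0881 under the median scaling).

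One inducible locus ran from Prrc2a to Lta and covers the cytokine genes Ltb and Tnf (adjusted p = 0.0274, Fisher-Freeman-Halton exact test). Its regions had 4.08, 2.61, 0.490, 4.24, 5.55 and 0.490 RPKM untreated and 6.98, 0.340, 0.851, 1.87, 1.87 and 0.510 treated. The first region was higher in the treated pool, and 2 regions, at 2.61 and 5.55 RPKM untreated, were called lower. The other locus, 58.5 kb from Zfp462, a zinc finger gene (adjusted p = 0.0183, Fisher-Freeman-Halton exact test), had 5.39, 3.43 and 0 RPKM untreated and 0.851, 5.28 and 0.170 treated. Only its middle region is a member.

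No dense locus had an mz ratio that differed from its inducible ratio after adjustment (0% of all 11785 loci, exact test on the noncentral hypergeometric distribution). The smallest adjusted p among dense loci was 0.0724. At an unadjusted p under 0.05 there were 94 dense loci (8.77%) against 4.96% of all loci. Median reads in mz heterozygotes were 21 at dense loci and 3 at single regions. The part of read number in these shares was not tested. The smallest unadjusted p was at the cluster near Gm38664 (7.12e-06, exact), with ratios of 0.297 and 0.983. At Dnajc11 it was 5.02e-05 (exact), with 0.260 and 0.855. Near Grhl2, a Grainyhead-like factor gene, it was 0.000692 (exact), with 0.211 and 0.912, and at the locus with Lamb2 and Usp19 it was 0.000617 (exact), with 0.389 and 1.04. The mz ratio was the lower at all 4. With no spread between embryos and with culture in the inducible series alone, what sets such values apart was not tested.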

How the data were processed

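ATAC-seq libraries of 21 single embryos and 2 pools were grouped by title. Per the submitters' processing notes, cutadapt, Bowtie2, MACS2 and mm10 were used, and the settings, duplicate removal and merging of embryos are not given in the sources used here. The authors' deposited table gives ATAC-seq values in RPKM, 1 per group, and CUT&RUN values in RPKM from Lai et al. 2023, per the file headers. The authors' deposited ratio columns (linear ratio, knockout over control) were not used for any value. Members, gene lists and tests were chosen with earlier results of these data known.

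The deposited ATAC-seq RPKM values were whole multiples of 0.587, 0.359, 0.163 and 0.170 RPKM per read, so reads were recovered. The 4 columns held 99826, 109296, 285671 and 190091 reads, 21734, 23604, 57730 and 39530 of them at members. Counts were compared by two-sided exact binomial tests, Benjamini-Hochberg adjusted at 0.05 over all regions or all loci, including single regions. The binomial tests and the test between series were checked on simulated reads drawn independently. That check cannot show the effect of duplicates, shared reads or spread between embryos. The Fisher-Freeman-Halton test was not simulated. Ratios are of summed RPKM with 95% Clopper-Pearson intervals. Python 3.11.15, scipy 1.17.1, pandas 2.3.3 and R 4.3.3 were used. Regions whose midpoints are close may share reads if windows wider than the regions were counted, and duplicates left in would make intervals too narrow.

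Genes came from RefSeq spans (GRCm38.p6), and start sites from a promoter table that does not list every gene, so exons, introns and UTRs were not told apart. Named loci were the 10 with the most regions, up to 10 per comparison and direction by adjusted p (members and loci), up to 5 with unequal ratios or a series difference, and those within 50 kb of listed genes. Binding windows could not be read without a genome, so promoter stretches and microRNAs were printed in place of the planned summit windows, by a rule made after the table was seen. Not every locus or member chosen by the rule for named loci is described, and 1 locus is not reported here.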

Additional observations from a re-analysis of the deposited data

How the results depend on the processing

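The ratio over members kept its direction under every alternative run. These alternatives changed the members or the summary, and none changed the scaling between columns. Whether the direction holds under another scaling was not tested. The members' ratios, 0.663 (mz) and 0.714 (inducible), lie close to the 0.668 and 0.694 of all listed regions. In the mz series it was 0.676 with at least 4 neighbours required, 0.637 in the accessible class, 0.738 in the other class and 0.780 as a median of (RPKM + 1) ratios. In the inducible series it was 0.743 with at least 4 neighbours and 0.792 as that median. Counts of lower calls depended on the scaling between columns. The median scaling used the median log2(RPKM + 1) ratios over all regions, -0.32 (mz) and -0.35 (inducible). It left 14 members and 22 dense loci in the mz series and 33 and 49 in the inducible series. The shares of dense loci, 2.05% and 4.57%, then stood beside 0.670% and 2.21% of all loci. Those of members were 0.450% and 1.06%, beside 0.307% and 1.17% of all regions. Scaling to equal sums left 3 members and 8 dense loci in the mz series and 15 and 21 in the inducible series. Then 5 and 14 dense loci were higher, with no share over all loci computed. Lower members were 0.0964% and 0.482%, beside 0.0826% and 0.460% of all regions. Lower dense loci were 0.746% and 1.96%, beside 0.144% and 1.11% of all loci. Neighbours within 10 kb gave 29 and 71 in the mz series and 108 and 161 in the inducible series, and within 25 kb 110 and 231, and 314 and 433, as the members themselves changed from 1702 to 5682. Lower members were 1.70% (10 kb) and 1.94% (25 kb) in the mz series, and 6.35% and 5.53% in the inducible series. The shares over all regions were 1.73% and 6.37%. Lower dense loci were 10.4% and 14.7% (mz), and 23.6% and 27.5% (inducible), with no share over all loci computed. Of the 20 lower calls at the 19 loci with the smallest adjusted p, none reversed. Equal sums ended the mz calls of Pank3, Got1 and Kank4. Leaving out the 10 dense loci with the most control reads, an alternative chosen after seeing the data, gave 0.665 and 0.714. No paired analysis was possible because each group is 1 merged column, which also kept replicates from being left out in turn. At a median of 5 reads per member in both mz columns, a missing call does not show an unchanged region.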
